A study of Mus musculus with 12 samples.

Results

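The enzymes described here break down amino acids in the liver: Hal, Sds, Gls2, Tat, Hpd, Tdo2, Kmo, Haao and Prodh. They were followed through every array probe annotated to one of these 9 symbols that reached a detection p of 0.05 or less on at least 1 array. This rule found 11 probes of 7 genes, among 20561 probes and 10838 named genes kept in all. Hal, Haao and Prodh were read by 2, 3 and 2 probes, and Tat, Hpd, Tdo2 and Kmo by 1 probe each. No probe used here is annotated to Sds, serine dehydratase, or Gls2, the liver glutaminase, and these were not analysed here.

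RNA came from hepatocytes of Gata4,6 fl/fl mice of a C57BL/6 x 129Sv background, aged 2.5 to 4.5 months, which carried floxed alleles of both GATA transcription factor genes in both groups. The AAV-Cre group had been injected intravenously with AAV8-Tbg-Cre, and the AAV-GFP group with AAV8-Tbg-GFP, 2 weeks before RNA was collected. The Tbg promoter is active in hepatocytes, so Cre, the recombinase that excises floxed DNA, is made mainly there, and the hepatocytes were purified on a Percoll gradient. Each group had 6 samples, each on 1 Illumina MouseWG-6 v2 array, and the comparison asks which hepatocyte transcripts depend on Gata4 and Gata6. Whether each sample came from its own animal is not stated in the labels, and the p-values here measure only how far these samples spread. In RNA from a cell population, fewer cells of a type and less RNA per cell cannot be told apart.

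The liver is the main site at which surplus amino acids lose their nitrogen and pass their carbon to glucose, fat or energy production. Histidine, tyrosine and tryptophan each enter a dedicated route whose opening enzyme (Hal, Tat and Tdo2) is made at a high level in the liver, and several of these enzymes are induced in rodents by glucocorticoids, glucagon or dietary protein. Hpd follows Tat in tyrosine breakdown. Kmo and Haao act further down the kynurenine route, which leads from tryptophan towards NAD. Prodh starts proline oxidation in mitochondria. Many of these functions are zoned, with Hal, Sds and Gls2 typical of hepatocytes near the portal vein and glutamine synthesis typical of those near the central vein.

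GATA factors are named for the short DNA motif that they bind. The stretch from 250 bases before to 50 bases after the start of each of the 7 genes (RefSeq, GRCm38.p6) was therefore searched on both strands for the motif AGATAA and its variant AGATAG, and for the motif TGATAA and its variant TGATAG. Of the 7 stretches 3 held a match, those of Tat, Hpd and Kmo, while 9778 of all 32851 promoters of this length (29.8%) held at least 1. The matches are shown because these are the only ones among the enzymes, with the matched bases in capitals. In Tat the match starts 197 bases before the gene start (chr8:109990212-109990271, plus strand), in Hpd 92 bases before it (chr5:123182783-123182842, minus strand) and in Kmo 109 bases before it (chr1:175632057-175632116, plus strand). The sequences run 5′ to 3′ on the strand of the gene, and in Hpd and Kmo the motif lies on the opposite strand and reads as its reverse complement.
Tat: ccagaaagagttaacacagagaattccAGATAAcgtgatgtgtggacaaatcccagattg
Hpd: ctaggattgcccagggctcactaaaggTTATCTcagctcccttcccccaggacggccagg
Kmo: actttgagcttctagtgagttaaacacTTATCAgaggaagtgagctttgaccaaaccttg
A match of letters is no evidence of binding.

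The arrays detected between 14318 and 16381 probes, and pairs of arrays correlated at 0.966 to 0.989 across probes. Gata6 went against the group labels at its brighter probe, ILMN_2868133, which averaged 11.59 ± 0.37 log2 signal in AAV-Cre hepatocytes and 9.88 ± 0.23 in AAV-GFP hepatocytes (SD, n = 6 each). Its difference was 1.71 higher (limma, adjusted p = 0.000377). The dimmer probe, ILMN_1255968, was detected on 4 AAV-Cre arrays and 0 AAV-GFP arrays, with a difference of 0.26 (limma, adjusted p = 0.800). The Gata4 probe was detected on 1 AAV-Cre array and 0 AAV-GFP arrays. The positions of these probes relative to the excised DNA are not given in the sources used here, so these probes do not check the excision, and every direction below rests on the labels of the arrays. AAV-Cre replicate 3 read as female, with Xist at 13.31 against 7.70 to 7.95 on the other arrays. AAV-GFP replicate 4 had the highest summed level of pericentral marker genes, 175950 against 98914 to 128572 on the other 11 arrays. It was also highest for the neutrophil markers, at 3738 against 1459 to 1898, and for the macrophage, erythroid and lymphocyte markers. Of the 6 neutrophil and 3 lymphocyte markers 0 were detected on all 12 arrays, so background signal enters these sums. All 6 hepatocyte markers measured were detected on all 12 arrays. The other markers measured were 10 endothelial, 8 macrophage, 2 bile duct, 5 stellate, 3 erythroid, 6 neutrophil and 3 lymphocyte genes. Of these 0 passed the test between the groups (limma, adjusted p under 0.05). Only 4 higher and 19 lower of 10838 named genes passed, so this count does not show an equal cell content. Reln and Elane had an unadjusted p under 0.05, against 653 named genes (6.03%). The stellate marker Reln stood at -0.88 (limma, adjusted p = 0.205), and 4 of the 5 stellate markers lay below 0. Elane, a neutrophil marker near background, stood at 0.16 (limma, adjusted p = 0.947).

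None of the amino acid catabolic enzymes passed the test between AAV-Cre and AAV-GFP hepatocytes. Of the 11 probes, 0 had an adjusted p under 0.05 (limma, Benjamini-Hochberg over all probes), while 34 of all 20561 probes (0.165%) passed, 5 higher (0.0243%) and 29 lower (0.141%). At an unadjusted p under 0.05 the counts were 0 of 11 against 1039 of all probes (5.05%), and the groups overlapped at all 11 probes, against 103 of all probes (0.501%) with no overlap. The count at an unadjusted p under 0.05 was between 0 and 2 of 11 when single arrays were left out, with 2 reached without AAV-GFP replicate 3 or AAV-GFP replicate 6. Differences were small in both directions. They lay below 0 at 8 probes and above 0 at 3, with a median of -0.10 on the log2 scale beside 0.00 over all probes, and the largest in size was 0.26 at Tdo2. The adjusted p was 1.00 at each of the 11 probes. Leaving out a single array could move each of the 11 differences by over 1.5 times, and the range this gave is stated with each enzyme.

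How small a change could be seen differed between the enzymes. The standard errors of the 11 differences ran from 0.086 to 0.21 log2, while the median over all probes was 0.092. Every 95% confidence interval spanned 0. For the 10 probes detected on all 12 arrays the intervals reached no lower than -0.57, at Hpd, and no higher than 0.71, at Tdo2. The smallest difference among the 34 probes that passed was 0.39 in size, or 1.31-fold, and their median was 0.71.

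**Figure D1:**
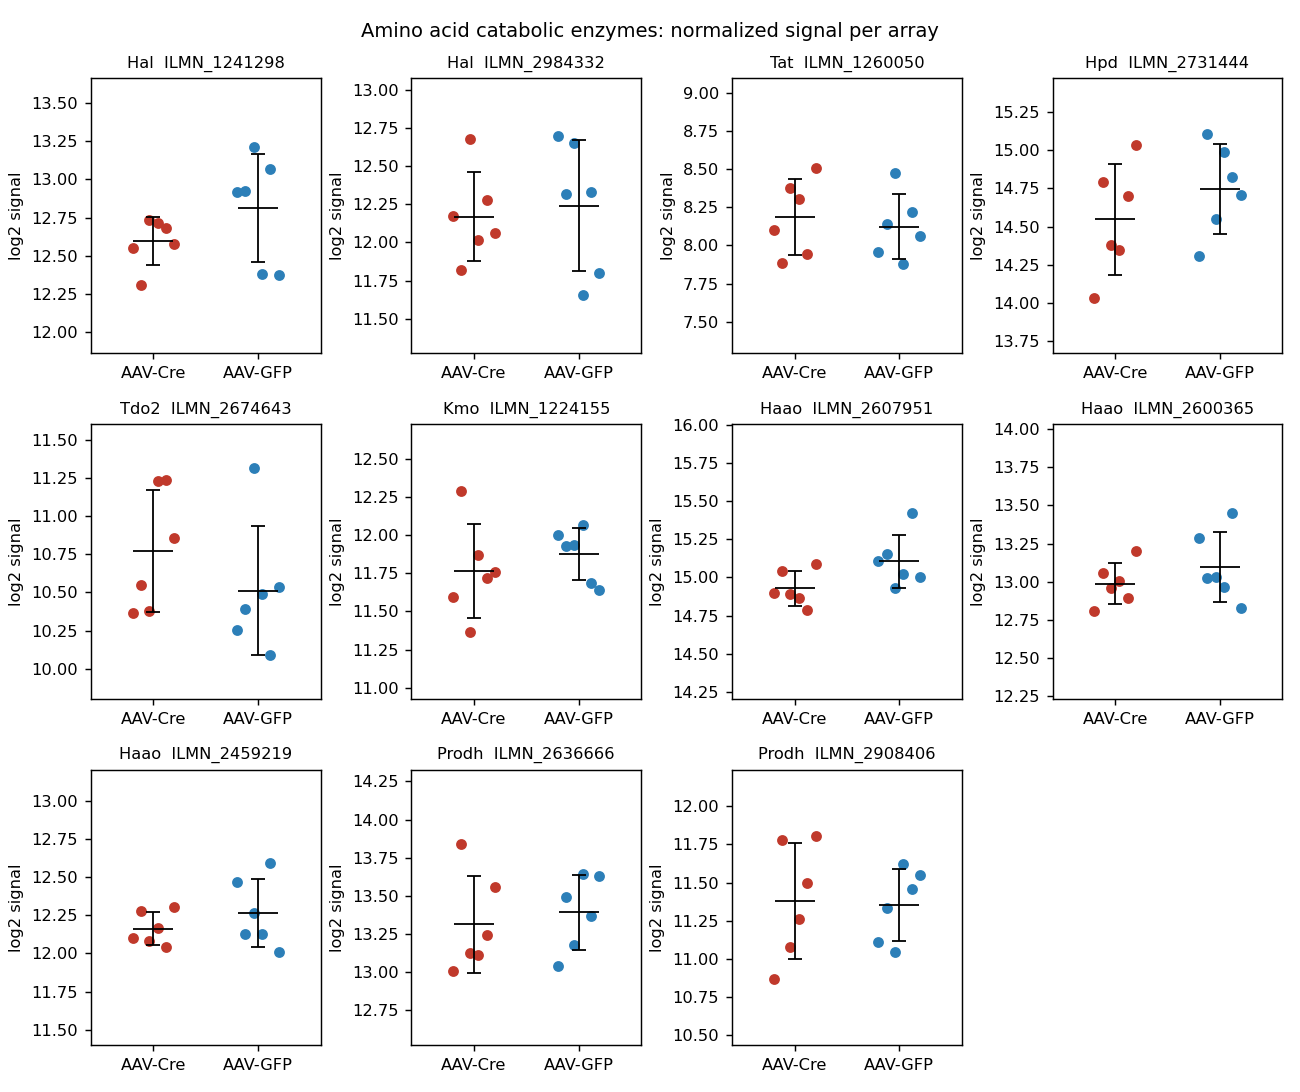
Normalized log2 signal of each of the 11 probes on the 6 AAV-Cre arrays (red, left) and the 6 AAV-GFP arrays (blue, right), with the mean and SD of each group in black. Every panel spans the same range on the log2 axis, and the points of the groups overlap in all 11 panels.

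**Figure D2:**
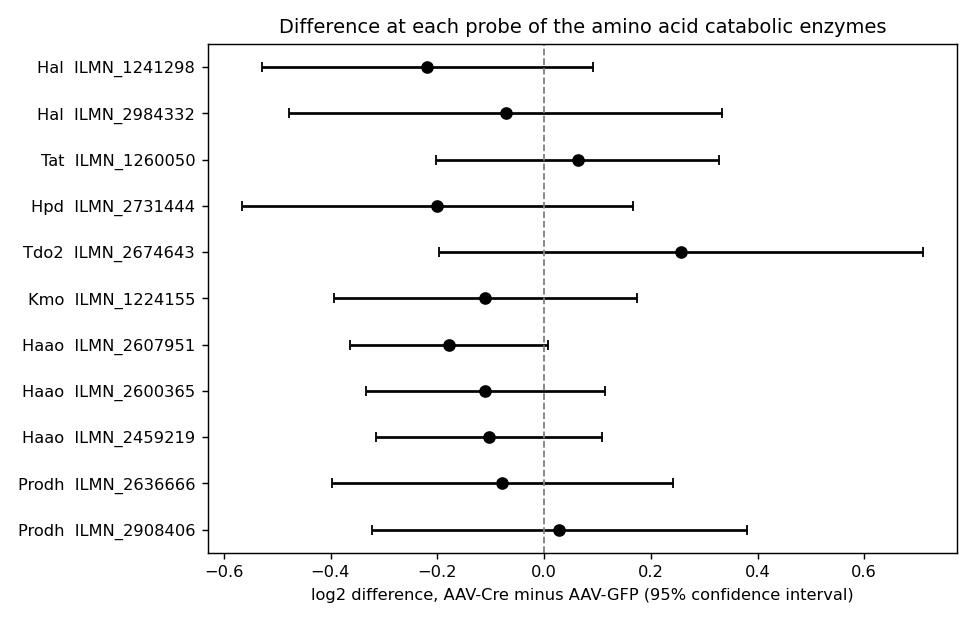
Log2 difference of AAV-Cre minus AAV-GFP at each of the 11 probes (points) with its 95% confidence interval (bars). All 11 intervals cross 0, the Haao probe ILMN_2607951 lies closest to excluding it, and Tdo2 has the widest interval.

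Hal, histidase, removes the amino group of histidine and is the entry to its breakdown. Its brighter probe, ILMN_1241298, had a lowest, median and highest log2 signal of 12.31, 12.63 and 12.73 in AAV-Cre hepatocytes and of 12.37, 12.92 and 13.21 in AAV-GFP hepatocytes. All 6 AAV-Cre arrays lay below the AAV-GFP median, yet AAV-GFP replicates 4 and 6, at 12.38 and 12.37, fell among the AAV-Cre arrays. The difference was -0.22 ± 0.14 (SE; 95% confidence interval -0.53 to 0.09), or 1.16-fold lower, with an exact two-sided permutation p of 0.186. The other probe, ILMN_2984332, ranged over 11.82, 12.12 and 12.68 in AAV-Cre hepatocytes and 11.65, 12.32 and 12.69 in AAV-GFP hepatocytes, and its difference was -0.07 ± 0.19 (exact permutation p = 0.732). Both Hal probes were low on AAV-GFP replicate 4. With single arrays left out, the difference at the brighter probe ran from -0.31, without AAV-GFP replicate 6, to -0.14, without AAV-GFP replicate 3, and that at the other probe from -0.19, without AAV-GFP replicate 4, to 0.02, without AAV-GFP replicate 1.

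The AAV-GFP arrays spread more widely than the AAV-Cre arrays at the brighter Hal probe, with ranges of 0.42 log2 in AAV-Cre and 0.84 in AAV-GFP hepatocytes. The deviation of Hal from its group mean was set against the summed level of 12 pericentral genes. Pearson's r was -0.80 (permutation p = 0.00088, adjusted p = 0.0246) and Spearman's rho was -0.76 (permutation p = 0.0107, adjusted p = 0.147) over 12 arrays. The relation had r = -0.76 within AAV-Cre and -0.81 within AAV-GFP, and -0.71 without the 2 arrays farthest from the median pericentral level. It did not hold with median scaling of the arrays in place of quantile normalization, where r was -0.47 and rho was -0.31 (permutation p = 0.221 and 0.381, adjusted p = 0.562 and 0.700). For the summed level of 10 periportal genes other than Hal, r was 0.58 and rho was 0.37 (permutation p = 0.128 and 0.291, adjusted p = 0.325 and 0.628). This periportal r was -0.22 within AAV-Cre, 0.74 within AAV-GFP and -0.007 without the 2 farthest arrays. Against the summed level of 13 genes of the fasting and glucocorticoid response, Hal had r = 0.75 and rho = 0.66 (permutation p = 0.0108 and 0.0413, adjusted p = 0.126 and 0.251), and with median scaling r = 0.82 and rho = 0.76 (permutation p = 0.00201 and 0.0132, adjusted p = 0.0563 and 0.359). Prodh had r = -0.72 and rho = -0.72 with the same fasting sum (permutation p = 0.0135 and 0.0158, adjusted p = 0.126 and 0.147). Tat, which was at background, had r = 0.62 with the fasting sum (permutation, adjusted p = 0.223). With the pericentral sum Tat had r = -0.62 and rho = -0.71 (permutation, adjusted p = 0.212 and 0.147). These are from 28 relations, 7 enzymes against 4 array measures, added after the values had been seen, and 1 passed by Pearson's r and 0 by Spearman's rho. All of them are read from the same arrays, and their permutations treat the arrays of a group as unconnected. Yet 7 of 12 arrays were most like the array of their own number in the other group. These relations were not repeated over the differences of same-numbered arrays. A sum weighs bright genes most. With the mean log2 level of each gene group in its place, r for Hal was -0.75 (pericentral), 0.58 (periportal) and 0.55 (fasting). In the same way r with fasting was -0.36 for Prodh and 0.86 for Tat. The part of any of these gene groups, or of the blood cell markers high on AAV-GFP replicate 4, in the enzyme levels was not tested.

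Tat, tyrosine aminotransferase, makes 4-hydroxyphenylpyruvate from tyrosine. It was at the background of the array: its probe was detected on 3 of 6 AAV-Cre arrays and 1 of 6 AAV-GFP arrays, and the mean of the lowest detected signals was 8.22. Its log2 signal ranged over 7.88, 8.20 and 8.51 in AAV-Cre hepatocytes and 7.88, 8.10 and 8.47 in AAV-GFP hepatocytes, a difference of 0.06 ± 0.12 (exact permutation p = 0.636). A signal at background cannot show a fall. With single arrays left out the difference ran from -0.00052, without AAV-Cre replicate 6, to 0.13, without AAV-GFP replicate 3.

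Hpd, 4-hydroxyphenylpyruvate dioxygenase, turns the product of Tat into homogentisate. Its probe, ILMN_2731444, read 14.03, 14.54 and 15.04 (lowest, median and highest log2 signal) in AAV-Cre hepatocytes and 14.31, 14.77 and 15.11 in AAV-GFP hepatocytes. The ranges overlapped almost throughout, and 4 of 6 AAV-Cre arrays lay below the AAV-GFP median. The difference was -0.20 ± 0.17 (95% confidence interval -0.57 to 0.17; exact permutation p = 0.323), so the data allow anything between 1.48-fold lower and 1.12-fold higher. Arrays of the same group differed far more than the group means, with ranges of 1.01 log2 within AAV-Cre and 0.80 within AAV-GFP. With single arrays left out it ran from -0.30, when AAV-Cre replicate 6 was omitted, to -0.097, when AAV-Cre replicate 1 was.

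Tdo2, tryptophan 2,3-dioxygenase, opens the kynurenine route. Its probe, ILMN_2674643, read 10.37, 10.70 and 11.24 in AAV-Cre hepatocytes and 10.09, 10.44 and 11.32 in AAV-GFP hepatocytes. AAV-Cre replicates 4 and 5 were high, at 11.23 and 11.24, and so was AAV-GFP replicate 3, at 11.32, so the highest array was in the AAV-GFP group. The difference of 0.26 ± 0.21 (95% confidence interval -0.20 to 0.71; exact permutation p = 0.301), or 1.20-fold higher, was the least precise of the 11. With single arrays left out it ran from 0.16, without AAV-Cre replicate 4 or 5, to 0.42, without AAV-GFP replicate 3.

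Kmo, kynurenine 3-monooxygenase, acts on kynurenine in the mitochondrial outer membrane. It read 11.36, 11.74 and 12.29 in AAV-Cre hepatocytes and 11.64, 11.93 and 12.06 in AAV-GFP hepatocytes. Both its lowest and its highest array were AAV-Cre arrays, replicates 3 and 2. The difference was -0.11 ± 0.13 (95% confidence interval -0.39 to 0.17; exact permutation p = 0.472). Omitting the highest array, AAV-Cre replicate 2, gave -0.21, and omitting the lowest, AAV-Cre replicate 3, gave -0.03.

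Haao, 3-hydroxyanthranilate 3,4-dioxygenase, makes the precursor of quinolinate and so of NAD. It was the most tightly measured of the enzymes. At ILMN_2607951 it read 14.78, 14.90 and 15.09 in AAV-Cre hepatocytes and 14.93, 15.07 and 15.42 in AAV-GFP hepatocytes. Of the AAV-Cre arrays 5 of 6 lay below the AAV-GFP median, and the ranges overlapped from 14.93 to 15.09. The difference was -0.18 ± 0.086 (95% confidence interval -0.36 to 0.01), or 1.13-fold lower. This was the lowest p of the 11 probes, 0.058 unadjusted by limma and 0.050 by the exact permutation test, whose smallest possible p is 0.00216, and it did not pass adjustment. The other probes gave differences of -0.11 ± 0.10 at ILMN_2600365 and -0.10 ± 0.099 at ILMN_2459219 (exact permutation p = 0.338 at each). All 3 Haao probes had their highest signal on AAV-GFP replicate 5, and omitting that array gave differences of -0.12, -0.040 and -0.037, the smallest in size that leaving out a single array gave. The largest in size were -0.21 at ILMN_2607951, without AAV-GFP replicate 3, and -0.17 and -0.16 at the other probes, without AAV-GFP replicate 6. They read the same RNA and are not separate evidence.

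Prodh, proline dehydrogenase, gave differences of opposite sign at its probes. ILMN_2636666 read 13.01, 13.19 and 13.84 in AAV-Cre hepatocytes and 13.04, 13.43 and 13.65 in AAV-GFP hepatocytes, a difference of -0.08 ± 0.15 (95% confidence interval -0.40 to 0.24; exact permutation p = 0.639). ILMN_2908406 read 10.87, 11.38 and 11.80 in AAV-Cre hepatocytes and 11.05, 11.39 and 11.62 in AAV-GFP hepatocytes, a difference of 0.03 ± 0.16 (exact permutation p = 0.874). At both probes the AAV-Cre arrays extended below and above the AAV-GFP arrays. With single arrays left out, the differences ran from -0.18 to -0.018 at ILMN_2636666, without AAV-Cre replicates 2 and 1, and from -0.056 to 0.13 at ILMN_2908406, without AAV-Cre replicates 6 and 1.

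The array-to-array spread of these enzymes was shared between probes of the same gene. After subtraction of the group means, the probes of Hal correlated at r = 0.85 and rho = 0.74 over the 12 arrays (permutation p = 0.00389 and 0.0135, adjusted p = 0.00648 and 0.0225 over 5 probe pairs), and r was 0.69 without the 2 farthest arrays. Those of Prodh correlated at r = 0.89 and rho = 0.90 (permutation p = 0.00026 and 0.00041, adjusted p = 0.00065 and 0.00102), with r = 0.90 without the 2 farthest arrays. The 3 Haao pairs had r from 0.75 to 0.95 and rho from 0.63 to 0.90. By the permutation test their adjusted p ran from 0.00045 to 0.0100 for r and from 0.00102 to 0.0529 for rho. The pair ILMN_2607951 and ILMN_2459219 did not pass by rho. For the pairs that involve ILMN_2607951 r was 0.47 and 0.43 without the 2 farthest arrays, so these rest in part on those arrays.

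Between enzymes, Hpd and Prodh had the highest correlation. AAV-Cre replicate 1 and AAV-GFP replicate 1 were low in both, at 14.03 and 14.31 for Hpd and 13.01 and 13.04 for Prodh, while AAV-Cre replicates 2 and 6 and AAV-GFP replicates 2 and 4 lay above their group means in both. Over 12 arrays r was 0.80 and rho was 0.87 (permutation p = 0.00421 and 0.0011, adjusted p = 0.0884 and 0.0231 over 21 pairs of enzymes). This was r = 0.80 within AAV-Cre, 0.79 within AAV-GFP and 0.77 without the 2 arrays farthest in Hpd. The permutations treat the arrays of a group as unconnected, although the arrays numbered 1 were lowest in both groups. Over the 6 differences between same-numbered arrays, computed after the values had been seen, r was 0.34 and rho was -0.09 (exact permutation p = 0.539 and 0.919, adjusted p = 0.984 and 1.00). The relation was not seen within numbers, but 6 differences are too few to show that it is absent there. Hal and Prodh had r = -0.68 and rho = -0.53 (permutation p = 0.00959 and 0.0945, adjusted p = 0.101 and 0.496), -0.79 within AAV-Cre, -0.76 within AAV-GFP and -0.61 without the 2 farthest arrays, which did not pass. With median scaling r was -0.52 and rho was -0.39 (permutation p = 0.0363 and 0.216, adjusted p = 0.382 and 0.757). Of the 21 pairs 0 passed by Pearson's r and 1, Hpd with Prodh, by Spearman's rho. In the tryptophan route, r was 0.21 for Tdo2 with Kmo, -0.60 for Tdo2 with Haao and 0.05 for Kmo with Haao, and the rank correlations were 0.26, -0.64 and 0.03 (permutation p from 0.0343 to 0.923, adjusted p from 0.240 to 1.00). These values moved with the scaling of the arrays: with median scaling r was 0.16, -0.38 and 0.51 for the same pairs (adjusted p from 0.461 to 0.750 for r). The number of probes detected on an array had r = -0.47 with Hpd and -0.50 with Prodh (rho = -0.43 and -0.48, permutation p = 0.153 and 0.122 for r, adjusted p = 0.346 and 0.325 for r). Its part in their relation was not tested.

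**Figure D3:**
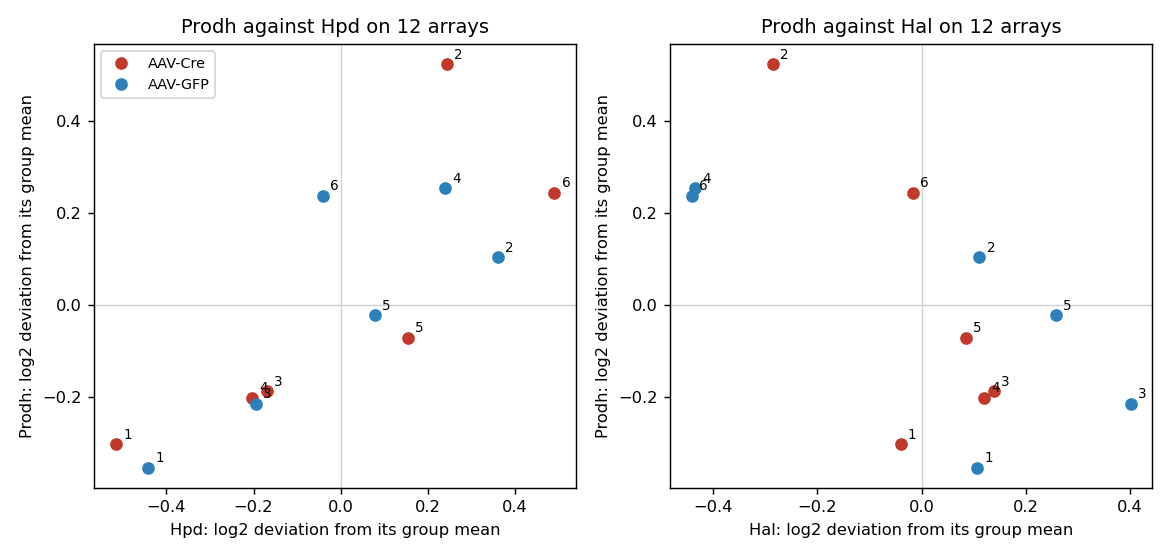
Deviation of Prodh from its group mean (log2, vertical) against that of Hpd (left) and of Hal (right) on 12 arrays, with AAV-Cre in red, AAV-GFP in blue and the replicate number beside each point. Points numbered 1 lie lowest for both Hpd and Prodh in each group (r = 0.80), and the relation to Hal (r = -0.68) did not pass the test after adjustment.

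For the 3 enzymes with the lowest p, the named genes with the most similar course over the 12 arrays were sought among 10831 genes, by r after removal of the group means. Haao was closest to Srd5a3 (r = 0.93), Pigo (0.92) and Gask1a (0.91), Hal to Rnf5 (0.87), Psma8 (0.87) and Babam2 (0.86), and Tdo2 to Dcaf13, Usp14 and Nab2 (0.89 each). Without the 2 farthest arrays these values fell to between 0.68 and 0.87. A high value is reached by some genes in any search of this size, and these are a description only.

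No other gene of the amino acid pathways passed the test either. Of 88 pathway genes listed, 71 were measured, taking the brightest probe of each gene, and 0 were called in either direction, against 23 of 10838 named genes (4 higher and 19 lower). Of the 71, 36 lay above 0 and 35 below, with a median of 0.01 beside 0.00 over all named genes. Without the 7 enzymes, 8 of 64 pathway genes (12.5%) had an unadjusted p under 0.05, against 653 named genes (6.03%), and the 8 went both ways.

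The phenylalanine and tyrosine list had the lowest median, -0.20 over 5 measured genes of 8, of which 4 lay below 0. Qdpr, which regenerates the tetrahydrobiopterin cofactor of phenylalanine hydroxylase, had the lowest p of all pathway genes. It read 12.63, 12.79 and 13.11 in AAV-Cre hepatocytes and 13.10, 13.35 and 13.80 in AAV-GFP hepatocytes, so that the groups met only at their edge. The difference was -0.55 ± 0.12 (95% confidence interval -0.81 to -0.28), or 1.46-fold lower, with an adjusted p of 0.172 by limma and an exact permutation p of 0.00433, and so it did not pass. Hgd, homogentisate dioxygenase, which takes up the product of Hpd, averaged 14.80 ± 0.12 in AAV-Cre and 15.18 ± 0.29 in AAV-GFP hepatocytes (SD, n = 6 each), a difference of -0.38 (limma, adjusted p = 0.544) at the brighter of its 2 probes, and -0.57 (limma, adjusted p = 1.00) at the other. It was picked out after its values had been seen.

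In the tryptophan list, 11 of 12 genes were measured, with a median of -0.04, and of 0.02 without AAV-Cre replicate 3. Kynu, kynureninase, which acts between Kmo and Haao, had the lowest p there at -0.26 ± 0.097 (SE; limma, adjusted p = 0.770). The branched-chain list leaned the other way: 11 of 17 measured genes lay above 0, with a median of 0.10. Bckdhb, a subunit of the branched-chain ketoacid dehydrogenase that commits leucine, isoleucine and valine to oxidation, averaged 11.22 ± 0.29 in AAV-Cre and 10.76 ± 0.22 in AAV-GFP hepatocytes (SD, n = 6 each). Its difference was 0.46 ± 0.13 (SE), with an adjusted p of 0.464 by limma.

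In histidine breakdown, with 5 of 5 genes measured and a median of -0.09, Uroc1, the enzyme after Hal, stood at 0.13 ± 0.12. The 6 measured proline and ornithine genes kept close to 0, from -0.10 at Grhpr to 0.01. The serine, threonine and glycine list (8 of 12 genes measured) had a median of 0.06, and Dld stood at 0.14. Glul, glutamine synthetase, had the lowest p of the glutamine, glutamate, aspartate and alanine list at 0.27 (limma, adjusted p = 0.797), but was near background, detected on 5 AAV-Cre arrays and 1 AAV-GFP array. In the lysine list, with a median of -0.09, Aass, which starts lysine breakdown, stood at 0.24. In the cysteine list, with a median of 0.11, the mitochondrial sulfide-oxidising enzyme Ethe1 stood at -0.30 (limma, adjusted p = 0.803).

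**Figure D4:**
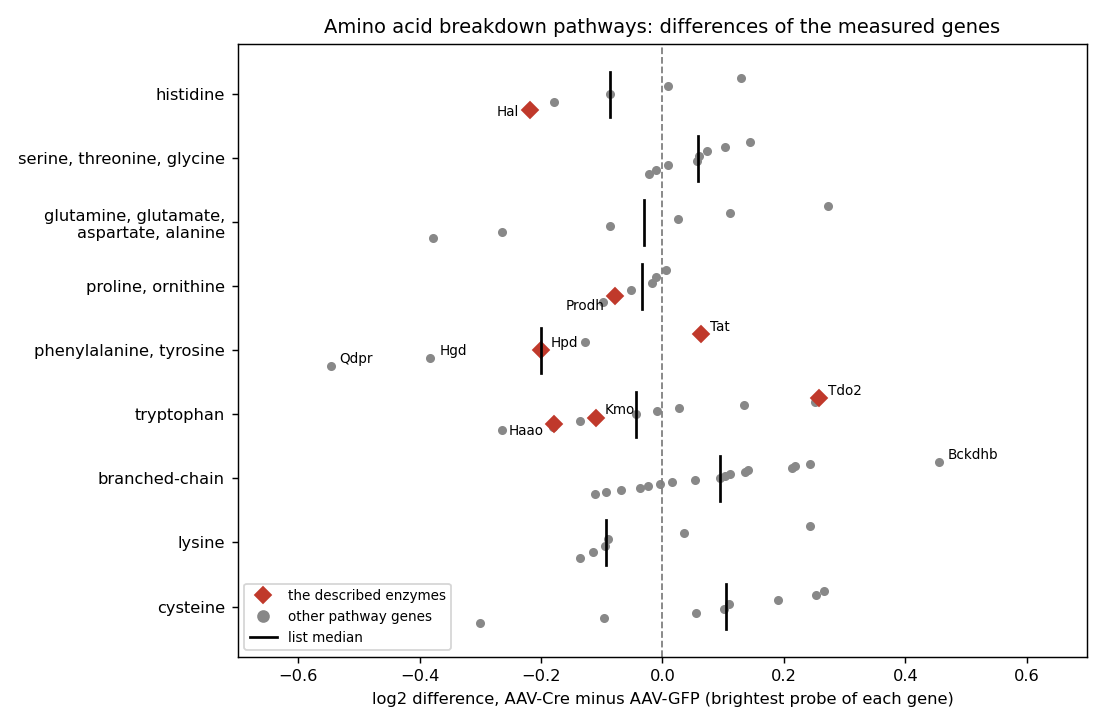
Log2 difference of AAV-Cre minus AAV-GFP for the brightest probe of each measured gene in 9 amino acid pathway lists. Diamonds are the enzymes described here, grey points are other genes of each list and black lines are list medians. Qdpr (-0.55) and Bckdhb (0.46) lie farthest from 0, and neither passed the test.

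Regulators and transporters of these pathways gave 0 calls as well. Of 14 listed regulators 12 were measured, with a median of 0.05. Cebpb, a transcription factor of the fasting and acute-phase response, stood at 0.36 (limma, adjusted p = 0.920) and Creb3l3, a liver factor active in fasting, at -0.21. All 11 amino acid transport genes listed were measured, with a median of -0.03, and the lowest p values belonged to the neutral amino acid carrier Slc38a4, at -0.31 (limma, adjusted p = 0.994), and to Slc25a44, a mitochondrial branched-chain amino acid carrier, at -0.18. Of 13 measured genes of the fasting and glucocorticoid response, 12 lay above 0, against 5456 of 10838 named genes. The median of the 13 was 0.28, beside 0.00 over all named genes. They were read on the same arrays and are not 13 separate observations. Their summed level overlapped between the groups, from 83330.5 to 141493 in AAV-Cre and from 75890 to 131509 in AAV-GFP hepatocytes. The lowest p values of this list were those of Pdk4 (0.55 ± 0.31) and Igfbp1 (0.40 ± 0.24), and 0 of the 13 had an unadjusted p under 0.05. The zonation lists had medians of -0.05 (11 periportal genes measured) and -0.07 (12 pericentral genes measured). Without AAV-Cre replicate 3 these medians were -0.002 and -0.16. In each list 3 genes had an unadjusted p under 0.05 (limma), or 27.3% and 25%, against 6.03% of all named genes. Of the periportal genes 5 lay above 0 and 6 below. The 3 with an unadjusted p under 0.05 went both ways. Aldh1b1 stood at -1.29 (limma, adjusted p = 0.258), Hsd17b6 at -1.13 (limma, adjusted p = 0.853) and Igf1 at 0.22 (limma, adjusted p = 0.613). All 3 were picked out after their values had been seen. Of the pericentral genes 3 lay above 0 and 9 below. Those with an unadjusted p under 0.05 were Cyp1a2 at -0.51 (limma, adjusted p = 0.920), Gulo at -0.38 (limma, adjusted p = 0.803) and Glul. Glul stood at 0.27, near background. Cyp1a2 and Gulo were likewise picked out after their values had been seen.

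Among the enzymes whose promoter held one of the GATA motifs, the differences were 0.06 (Tat, at background), -0.20 (Hpd) and -0.11 (Kmo), and the differences of enzymes without one lay between -0.22 (Hal) and 0.26 (Tdo2) at their brightest probes.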

How the data were processed

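Total RNA of hepatocytes was labelled with the TargetAmp-Nano kit and hybridised to Illumina MouseWG-6 v2 arrays. The authors exported a probe signal, deposited as an intensity on a linear scale with the background left in, so folds of dim probes are compressed. A detection p-value was deposited beside every signal. They also deposited a value table of 19627 probes, quantile-normalized intensities filtered on detection, used here as an alternative and for gene names. Here, the exported signal of 45281 probes was quantile-normalized between arrays and log2-transformed, and probes with a detection p of at most 0.05 on at least 1 of 12 arrays were kept. Groups were compared with limma 3.58.1 (lmFit and eBayes, two-sided, R 4.3.3), with Benjamini-Hochberg adjustment over 20561 probes and a call at an adjusted p under 0.05. Limma replaced the test named in the study's methods. Exact permutation tests used all 924 assignments of arrays. Correlations were tested with 100000 permutations within groups. The fits and the correlation test were checked on simulated data. Signals of different probes were compared only to choose the brightest probe of a gene. The marker, zonation and fasting levels are sums of linear normalized signals over the probes of each list. The text names every member probe, the gene of lowest p in each pathway list, the 2 of lowest p in the regulator, transport and fasting lists, and the 3 genes most like each of the 3 members of lowest p. Members, lists and rules were chosen with earlier results of these data known.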

Additional observations from a re-analysis of the deposited data

Results flagged for a closer look

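Tdo2 had 1 AAV-GFP array far from the others of its group: replicate 3 read 11.32 log2 signal, and the next highest AAV-GFP array read 10.54. The gap was 0.635 of the range of the group, against a critical value of 0.625 for 6 samples (Dixon). Of the 22 groups examined, 11 probes in each of 2 groups, this was the only one past that value, and chance gives about 1 in 20. Without the array the Tdo2 difference was 0.42, and its cause was not tested.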

How the results depend on the processing

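Under 19 alternative settings the count of called enzymes stayed at 0, and the lowest adjusted p of any of their probes was 0.803. The 71 pathway genes also gave 0 calls with median scaling. Over all probes 34 were called, 18 with normexp background correction, 20 with the replicate number as a block, and 19 to 42 when single arrays were left out, with 19 reached without AAV-GFP replicate 3, AAV-GFP replicate 4 or AAV-Cre replicate 6. Of 208 differences, 201 kept their sign and their side of the threshold, and 7 changed sign, all on leaving out 1 array. These were Hal ILMN_2984332 (from -0.189 to 0.0193), Prodh ILMN_2908406 (-0.0558 to 0.131) and Tat (-0.000519 to 0.134). Same-numbered replicates were not treated as pairs, since the labels tie no number to a shared animal or day and not every pair was alike: their deviations correlated at -0.20 to 0.40 over 6 pairs, 4 of them above 0.1, and 7 of 12 arrays were most like their own number, a hint from the data that numbers may be shared. The block gave 0 called enzymes, and 0 correlations between enzymes passed over the differences of same-numbered arrays. With median scaling, Hpd and Prodh kept r = 0.78 and rho = 0.84 (permutation, adjusted p = 0.115 and 0.042). With 6 arrays a group, intervals of the detected enzymes reach 0.71 log2. Tat, at background, is limited by signal.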
